A study of Mus musculus with 16 samples.

Results

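Mouse 8-cell embryos that had received double-stranded RNA (dsRNA) against both Tfap2c and Tead4 were compared with embryos that had received dsRNA against GFP, a jellyfish protein gene that the embryo does not carry. The comparison took all double knockdown and all GFP control libraries, 8 of the 16 libraries of the series, and 11422 of the 43437 genes in the table, namely those that reached 1 FPKM in 4 or more of the 16. FPKM counts the fragments of a gene, scaled to gene length and library size. Zygotes were injected with dsRNA, embryos were grown in KSOM medium to the 8-cell stage, and each library held the polyadenylated RNA of 10 pooled embryos, about 80 cells, so a value is an average over embryos and over cells. The 4 libraries of each group were named A1, A2, B1 and B2. In cross A the mothers were C57BL/6J×CBA/J hybrids, and in cross B they were C57BL/6J×DBA/2J hybrids. The father is labelled a C57BL/6J×DBA/2J hybrid in Double A1 and Double B1, and in the other libraries the labels carry higher strain numbers up to DBA/10J, which could not be resolved. Controls had been injected with dsRNA as well. The amounts injected are not given here, so an effect of the total amount of dsRNA cannot be told apart from that of the knockdown. No protein was measured, so knockdown is given as mRNA. Libraries from embryos given dsRNA against Tfap2c alone or Tead4 alone, 4 of each, entered the fit for its estimate of the spread. Whether the pools of a group were raised from separate matings or cultures is not stated, and the p-values therefore reflect only how much these particular pools varied.

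Tfap2c encodes AP-2γ and Tead4 encodes the TEAD factor that works with the coactivator YAP. In the mouse embryo both factors act upstream of the trophectoderm, the outer epithelium that builds the placenta, and together with RhoA activity they have been tied to the emergence of an apical, actin-rich domain at the 8-cell stage. Hippo kinases, with angiomotins such as Amot and Amotl2, hold YAP out of the nucleus in cells without such a domain. The comparison asks what the transcriptome of the 8-cell embryo looks like when both factors are depleted at once.

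The libraries were early embryo by their markers and differed little in the measures of overall makeup given next. Summed blood markers did differ, with means of 57.7 FPKM in the double knockdown and 27.1 FPKM in the control (exact permutation p = 0.0286). They are described further below. Of 11 early embryo markers 10 stood at 1 FPKM or more in each of the 8 libraries, and the exception, the oocyte transcript Ooep, lay between 0.436 and 1.17 FPKM. Depth is unknown, since read counts were not used here. The FPKM sum, the number of genes at 1 FPKM, the share of the 10 most abundant genes and the mitochondrial share gave exact two-sided permutation p of 0.543, 0.2, 0.514 and 0.8 between the groups. Among the markers of other cells, 15 of 17 for cumulus and granulosa cells, 14 of 16 for sperm and 11 of 12 for fibroblasts and endothelium never reached 1 FPKM in these libraries, and 0 of the 5 members measured in these 3 lists passed. Of the cumulus and granulosa markers 1 was lower without Double A1 or GFP A1 and 1 was higher without GFP B1. Across genes, correlations of log2 values lay between 0.949 and 0.975 within a group and between 0.922 and 0.956 across the groups.

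Tfap2c mRNA stood at 16.4, 16.1, 16.4 and 15.7 FPKM in Double A1, A2, B1 and B2, in which order all values below are given. The GFP libraries held 43.2, 38.8, 28.3 and 32.5 FPKM. Double knockdown libraries were nearly alike and kept 45.3% of the control mean (log2 change -1.08 ± 0.11 SE, limma adjusted p = 1.46e-05, n = 4 and 4). Tead4 mRNA stood at 8.17, 5.40, 9.62 and 14.8 FPKM against 58.4, 46.5, 47.7 and 41.8 FPKM, which is 19.5% of the control mean (log2 change -2.31 ± 0.23, adjusted p = 1.15e-05). Its depletion was uneven, most complete in Double A2 and least complete in Double B2. For both genes the groups were apart (exact permutation p = 0.0286, the smallest that 4 against 4 libraries allow). Log2 changes throughout are differences of log2(FPKM + 1) and their errors are standard errors, and this scale understates the change of genes with low values.

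The steepest falls, such as those of Ly6a, Smpdl3a and Gsto1, were larger than the steepest rises, such as those of Uchl1 and Tekt2. Of the genes tested, 2872 passed an adjusted p under 0.05 (25.1%), of which 1583 were higher (13.9%) and 1289 lower (11.3%) in the double knockdown. Changes beyond 2-fold leaned the other way, with 260 higher and 413 lower, and beyond 4-fold 8 were higher and 65 lower. The lean of the total count towards rises changed with scaling, since median-ratio rescaling gave 1371 higher and 1493 lower. Over all genes tested the median log2 change was 0.05. Among the called genes, 2871 had the same sign in both crosses, and 1913 showed groups that did not overlap over the 8 libraries. Since genes were called on their change over both crosses together, a shared sign is largely given by the selection and is no replication. Over all genes tested, 11.3% were apart with the double knockdown higher and 9.3% with it lower. Of the 959 called genes whose groups did overlap, 704 were apart in the same direction within cross A and within cross B. These genes had been called from the same libraries with cross in the model, so this count is no separate support. The matching share over all genes tested was not computed.

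Ly6a (chromosome 15, 74994877 to 74998031 of GRCm38.p6, ENSMUSG00000075602), the gene of a lipid-anchored surface antigen, fell most among the genes named by rule. It stood at 4.59, 1.16, 14.1 and 34.7 FPKM against 142, 174, 322 and 288 FPKM (log2 change -4.61 ± 0.42, adjusted p = 5.4e-06). All double knockdown libraries lay far below all controls, and Double B2 was the highest of them. Smpdl3a (chromosome 10, 57794544 to 57811830, ENSMUSG00000019872), which encodes a sphingomyelinase-like phosphodiesterase of the lysosomal pathway, went to 7.62, 1.33, 9.12 and 24.4 FPKM from 108, 102, 138 and 165 FPKM (-3.90 ± 0.48, adjusted p = 4.97e-05). Gsto1, an omega-class glutathione transferase gene, stood at 16, 4.56, 29 and 85.5 FPKM against 151, 252, 464 and 588 FPKM (-3.85 ± 0.47, adjusted p = 4.41e-05). In both genes Double A2 was the lowest of the 8 libraries, Double B2 was the highest double knockdown library, and no double knockdown library reached a control.

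Dap, linked to death signalling and autophagy, kept 7.46% of the control mean (log2 change -3.62). Cthrc1, a secreted protein gene, kept 14.1% (-3.09), and Lect1, which encodes chondromodulin, kept 15.2% (-2.84). Calm5, a calmodulin-like gene, Zfp947, a zinc finger gene, Plp2, a membrane protein gene, and Gprc5a, an orphan receptor gene, kept between 10.8% and 11.8%. The limma adjusted p of these 7 genes were at most 0.00134. All 12 steepest falls, Crip1 below included, had groups that did not overlap, and in all 12 Double B2 was the highest double knockdown library.

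Crip1, a small LIM-domain protein gene, Tagln2, the transgelin-2 gene of actin bundling, and Amotl2, an angiomotin gene, are shown with the 250 bases before their transcription start, because they fell and these stretches hold letters known to be read by AP-2 or TEAD factors. Sequences are RefSeq's for GRCm38.p6, plus strand, 5′ to 3′. Capitals mark the AP-2 letters GCCNNNGGC in Crip1 and the TEAD letters GGAATG, here on the opposite strand, in Tagln2 and Amotl2.
Crip1, chr12:113151762-113152011: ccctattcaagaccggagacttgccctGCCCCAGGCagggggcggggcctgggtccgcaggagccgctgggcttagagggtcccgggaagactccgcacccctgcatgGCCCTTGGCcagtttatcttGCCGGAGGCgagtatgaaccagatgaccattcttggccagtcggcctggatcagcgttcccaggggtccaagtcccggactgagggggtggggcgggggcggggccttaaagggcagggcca
Tagln2, chr1:172499996-172500245: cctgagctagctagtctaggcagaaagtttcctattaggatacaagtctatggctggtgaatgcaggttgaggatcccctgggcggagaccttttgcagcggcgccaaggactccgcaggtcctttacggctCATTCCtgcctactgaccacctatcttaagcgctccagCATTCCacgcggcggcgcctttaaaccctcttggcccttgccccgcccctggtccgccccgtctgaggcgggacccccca
Amotl2, chr9:102717554-102717803: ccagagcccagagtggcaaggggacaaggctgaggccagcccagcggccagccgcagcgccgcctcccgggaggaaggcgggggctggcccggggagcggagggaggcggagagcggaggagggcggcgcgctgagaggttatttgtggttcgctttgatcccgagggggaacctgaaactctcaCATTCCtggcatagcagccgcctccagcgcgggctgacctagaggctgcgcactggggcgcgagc

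These letters were searched on both strands of windows from 250 bases before to 50 bases after each start, and a match is a description of the sequence and not a bound site. GCCNNNGGC was in 24.2% of the 9521 windows of genes tested, in 25.2% of those of genes that fell and in 25.5% of those of genes that rose. GGAATG was in 12%, 14.3% and 10.8% of the same sets. Over all 32851 windows of the table the shares were 16.6% for GCCNNNGGC and 14.7% for GGAATG. Among genes that fell over 4-fold, 11 of 55 windows held the AP-2 letters and 7 held the TEAD letters, so most of these windows held neither.

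Crip1 stood at 1.5, 0.864, 2.11 and 16.6 FPKM against 29.3, 19.1, 69.6 and 76.2 FPKM (log2 change -3.42 ± 0.42, adjusted p = 4.91e-05). Double B2 lay close below the lowest control, and the other double knockdown libraries lay far below it. Tagln2 stood at 6.83, 4.03, 4.67 and 22.7 FPKM against 45.3, 32.4, 67.6 and 70.9 FPKM (-2.62 ± 0.40, adjusted p = 0.000295), again apart and again with Double B2 nearest to the controls. Amotl2 stood at 1.99, 1.68, 2.49 and 3.70 FPKM against 7.01, 5.98, 10.1 and 9.95 FPKM (-1.42 ± 0.15, adjusted p = 1.24e-05).

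Double B2 was the highest of the double knockdown libraries in 648 of the 1289 genes that fell (50.3%), against 23.6% of all genes tested. It was also the library with the most Tead4 mRNA left, though not the most Tfap2c mRNA, and whether these facts are connected was not tested. Relative to the control mean of the same cross, the median log2 difference over the genes that fell was -0.71, -0.77, -0.83 and -0.68 in Double A1, A2, B1 and B2. Without Double B2, 2695 genes were called.

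Uchl1, a deubiquitinase gene abundant in oocytes and neurons, stood at 46.9, 70.1, 29.5 and 17.9 FPKM against 7.95, 8.92, 8.61 and 3.00 FPKM (log2 change 2.29 ± 0.47, adjusted p = 0.00233). Tekt2, which encodes a tektin of the ciliary axoneme, stood at 34.7, 59.7, 19.6 and 19 FPKM against 7.02, 10.4, 5.63 and 3.64 FPKM (2.08 ± 0.25, adjusted p = 3.86e-05). Both genes were highest in Double A2, and their groups were apart. Scd2, a stearoyl-CoA desaturase gene, was nearly even over the libraries, at 8.73, 6.13, 9.93 and 8.88 FPKM against 1.12, 1.49, 1.20 and 1.58 FPKM (1.99 ± 0.25, adjusted p = 5.12e-05).

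The chromatin protein gene Hmgn3 rose 4.69-fold in mean FPKM, the Ras-like gene Rasl11a 5.45-fold, the phosphatase regulator gene Ppp1r16b 6.34-fold and Zfyve20, which encodes the endosomal protein rabenosyn, 3.69-fold. Brdt, a testis bromodomain gene, rose 3.54-fold, the glutathione transferase gene Gsta2 4.74-fold and the cell cycle factor gene E2f5 3.90-fold. Groups were apart in 10 of the 12 largest rises. They overlapped in Usp17lb, a deubiquitinase gene of the 2-cell stage, and in D13Ertd608e. Usp17lb was high only in the double knockdown libraries of cross B, at 3.24, 3.09, 52.5 and 25.8 FPKM against 2.14, 0.275, 1.87 and 3.28 FPKM.

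**Figure D1:**
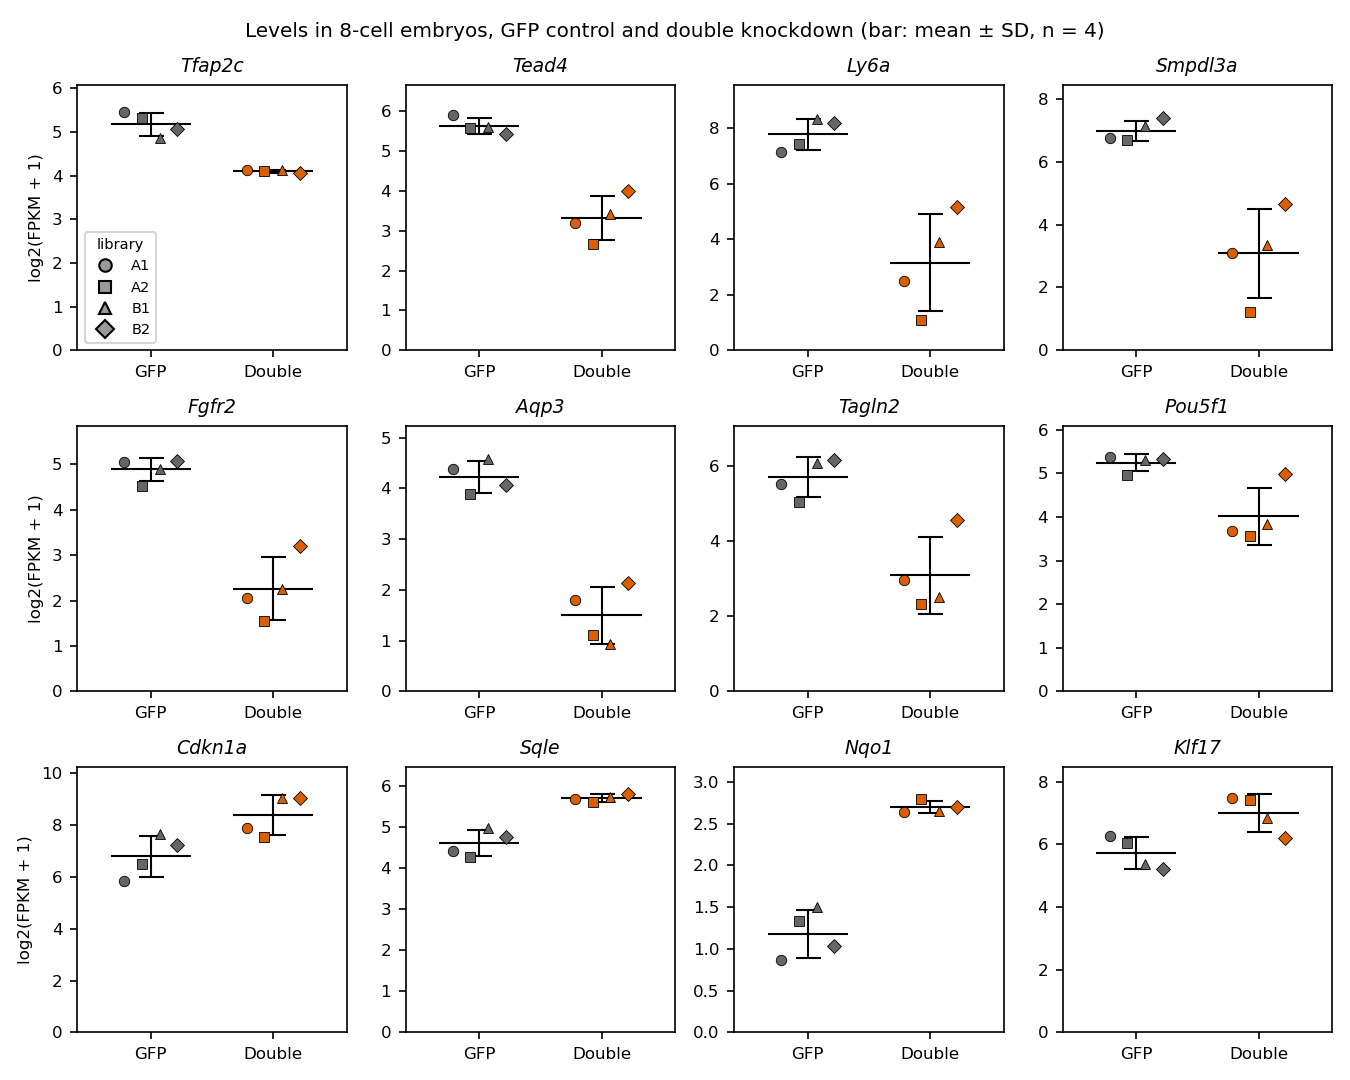
Levels of 12 genes as log2(FPKM + 1) on the y axis in the GFP control (grey) and the double knockdown (orange). Each marker is 1 library, the long bar is the mean and the error bar the SD over 4 libraries. The groups are apart in 9 panels and touch in Pou5f1, Cdkn1a and Klf17.

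Genes that later mark the trophectoderm were mostly lower. Among the 26 measured genes of this list 15 fell (57.7%) and 2 rose, with a median log2 change of -1.0, and without Tfap2c and Tead4 themselves 13 of 24 fell. Fgfr2, the FGF receptor gene of the trophectoderm, stood at 3.14, 1.91, 3.80 and 8.14 FPKM against 32.3, 22.1, 28.6 and 32.8 FPKM (-2.63 ± 0.25, adjusted p = 6.49e-06). Aqp3, a water and glycerol channel gene, stood at 2.48, 1.17, 0.922 and 3.38 FPKM against 19.8, 13.8, 23 and 15.8 FPKM (-2.73 ± 0.28, adjusted p = 1.38e-05). Neither gene had a double knockdown library within reach of the controls.

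Cldn4, a claudin gene, was at 0.683, 0, 0.681 and 1.61 FPKM against 7.57, 6.19, 6.81 and 7.92 FPKM (-2.30 ± 0.24, adjusted p = 1.41e-05). Gata3, a transcription factor gene of the trophectoderm, passed with a smaller change, at 0.509, 1.5, 1.55 and 3.13 FPKM against 3.13, 2.28, 7.18 and 7.02 FPKM (-1.12 ± 0.30, adjusted p = 0.0133), and Double B2 overlapped the controls of cross A. Hand1 and Cited2 were the 2 that rose (0.67 and 0.71), and without Double A2, Double B1, GFP A1 or GFP B2 Cited2 did not pass (adjusted p from 0.0654 to 0.0989). Dab2, an endocytic adaptor gene, kept 23% of the control mean and Klf5, a Krüppel-like factor gene, kept 44.4%. Cdx2 never exceeded 0.341 FPKM in these libraries and was not tested, and neither were Sox2 (at most 0.178 FPKM) and Eomes (at most 0.313 FPKM). Leaving out any 1 library left from 14 to 16 trophectoderm genes lower.

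Pluripotency genes were also lower more often than higher. Klf5 and Esrrb, which both fell, are on this list and on the trophectoderm list, so the lists are not independent. Among 28 measured genes 12 fell (42.9%) and 2 rose, leaving 14 that missed the threshold, with a median log2 change of -0.35. Tdgf1, the gene of the Nodal co-receptor Cripto, stood at 15.6, 13.1, 13 and 20.5 FPKM against 84.7, 109.8, 64.9 and 66.5 FPKM (-2.30 ± 0.25, adjusted p = 1.57e-05). Pou5f1, which encodes Oct4, stood at 11.8, 10.8, 13.3 and 30.5 FPKM against 40.5, 30.02, 38.9 and 39.2 FPKM (-1.23 ± 0.26, adjusted p = 0.00296). For Pou5f1 Double B2 overlapped GFP A2, and the other double knockdown libraries were far below.

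Nanog did not pass (-0.63 ± 0.34, adjusted p = 0.194). It stood at 11.8, 8.29, 32 and 25.6 FPKM against 26.7, 27.7, 25.2 and 27.9 FPKM, so that the libraries of cross A were low and those of cross B were at the control level. Esrrb, a nuclear receptor gene, kept 40.7% of the control mean and Tdh, the threonine dehydrogenase gene of naive embryonic stem cells, kept 39.9% (adjusted p = 0.000154 and 0.000103). Klf17, a factor gene of early cleavage named here after its values were seen, rose to 179, 171, 113 and 72.0 FPKM from 76.5, 65, 40.3 and 36.4 FPKM (1.25 ± 0.21, adjusted p = 0.000608). Within each cross the groups were apart, and across crosses Double B2 lay below GFP A1. Leaving out any 1 library left from 10 to 13 pluripotency genes lower.

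Among primitive endoderm genes 4 of 8 fell (50%), against 11.3% of all genes tested. They were Dab2, the endocytic receptor gene Lrp2, its partner gene Amn and the factor gene Gata6, and Sparc, a matrix protein gene, rose. Dab2 and Lrp2 are also counted among the trophectoderm genes above, so the lists are not independent. Lists below share fallen genes with the trophectoderm list too, such as Fgfr2 for FGF signalling, Cldn4 for tight junctions and Aqp3 for the cavity. Amotl2 is on both the Hippo and the YAP-TEAD target list. Gata6, named here after its values were seen, did not pass without Double A2 (adjusted p = 0.0619) or GFP A2 (adjusted p = 0.0529). Of the AP-2 and TEAD factor genes 4 were measured, and the 2 that fell were the targets.

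Among 16 measured genes of FGF signalling 5 fell (31.2%) and 2 rose (12.5%), against 11.3% and 13.9% of all genes tested. The median log2 change was -0.05. Without Double B2 the number that rose was 4, and without Double A1, Double A2, Double B1, GFP A1 or GFP B2 it was 1. Spry2, a feedback inhibitor gene, stood at 24.4, 15.3, 34.5 and 54.4 FPKM against 82.1, 89.3, 85.6 and 108 FPKM (-1.61 ± 0.22, adjusted p = 9.75e-05). Etv5, an ETS factor gene induced by FGF, kept 37.4% of the control mean. Fgf4, the ligand gene of the inner cells, stood at 6.33, 7.65, 7.42 and 6.69 FPKM against 2.36, 2.77, 3.62 and 2.69 FPKM (1.06 ± 0.20, adjusted p = 0.00114). Both the Spry2 and the Fgf4 groups were apart.

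In the Hippo pathway, 7 of 17 measured genes fell (41.2%) and 2 rose, and the median log2 change was -0.20. The number that fell was 4 without Double A2, Double B1 or GFP B2, and the number that rose was 1 without Double B1, GFP B1 or GFP B2. Vgll4, which encodes a competitor of YAP on TEAD factors, stood at 4.07, 2.66, 9.87 and 12.1 FPKM against 13.8, 14.2, 28.5 and 28.3 FPKM (-1.55 ± 0.19, adjusted p = 3.74e-05). Its groups were apart, although cross B was the higher cross in both. Amot, an angiomotin gene like Amotl2, went from at least 1.13 FPKM in the controls to at most 0.764 FPKM (-1.03 ± 0.17).

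Yap1 (-0.12, adjusted p = 0.675) and Tead1 (0.38, adjusted p = 0.153) did not pass. Of 9 measured genes known as YAP-TEAD targets, 4 fell (44.4%) and 2 rose (22.2%), against 11.3% and 13.9% of all genes tested. The median log2 change of the list was -0.26, and it ran from -0.51 without Double A1 to -0.09 without Double B2. Cyr61, a matricellular protein gene, stood at 3.56, 3.01, 5.57 and 8.69 FPKM against 11.6, 14.6, 15.1 and 12.6 FPKM (-1.30 ± 0.29, adjusted p = 0.00472). Ajuba, a LIM protein gene that restrains Hippo kinases, went the other way, at 8.24, 7.74, 7.10 and 6.16 FPKM against 3.35, 3.02, 2.86 and 2.74 FPKM (1.05 ± 0.12, adjusted p = 3.37e-05). Ctgf also passed as higher (0.89 ± 0.27, adjusted p = 0.0239), with 9.11, 8.73, 7.41 and 4.39 FPKM against 1.39, 3.49, 5.12 and 4.82 FPKM. Its groups overlapped in cross B, and without Double A1, Double A2 or GFP A1 the adjusted p was 0.0788, 0.0779 and 0.0743.

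Among 13 measured apical polarity genes 3 fell (23.1%) and 0 rose, so that the share called was near the 25.1% of all genes tested, with a median log2 change of 0.01 that was -0.04 after median-ratio rescaling. Prkcz, the atypical protein kinase C zeta gene, kept 52.3% of the control mean (-0.87 ± 0.16, adjusted p = 0.00107). The Crumbs gene Crb3 (-0.44, adjusted p = 0.0235) and the Par complex gene Pard6b (-0.63, adjusted p = 0.0281) passed narrowly. The adjusted p of Crb3 was 0.0622 to 0.0749 without Double A1, Double A2, Double B2, GFP A1 or GFP B2, and that of Pard6b was 0.0537 to 0.0948 without Double B1, GFP A1, GFP A2 or GFP B2. On the basolateral side 2 of 12 rose and 0 fell, namely the kinase genes Stk11 (0.48, adjusted p = 0.00634) and Mark1 (0.49, adjusted p = 0.0423). Mark1 did not pass without any 1 of the 8 libraries other than Double A1 (adjusted p from 0.0524 to 0.125), after median-ratio rescaling (0.0508) or quantile normalization (0.0644), or with the replicate block (0.0620). Of 9 genes of the apical cortex and microvilli 1 fell, the motor gene Myo1c (-0.79, adjusted p = 0.000838). Ezr, the gene of the cortical linker ezrin, did not pass, at 2.89, 3.49, 10.2 and 5.07 FPKM against 2.61, 3.52, 3.54 and 1.77 FPKM (0.63 ± 0.26, adjusted p = 0.0948). Rhoa lay between 146 and 190.2 FPKM in the 8 libraries (0.08 ± 0.08, adjusted p = 0.506).

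Several genes of proteins that bind or bundle actin filaments were lower. Of 16 tropomyosin, calponin, actinin and related genes 7 fell (43.8%) and 1 rose, with a median log2 change of -0.51, and 7 or 8 fell whichever library was left out. Tpm4, a tropomyosin gene, stood at 17.8, 13.4, 28.5 and 32.5 FPKM against 57.2, 58.7, 71.3 and 73.9 FPKM (-1.53 ± 0.17, adjusted p = 1.75e-05). Lasp1, a LIM and SH3 protein gene, kept 33.1% of the control mean and Zyx, the zyxin gene of focal contacts, kept 14% at a low level of at most 4.66 FPKM. Tpm4, Lasp1 and Zyx, like Tagln2 above, had groups that did not overlap.

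Of 45 genes of actin nucleation and contractility 7 fell and 5 rose, shares near those of all genes tested. Without Double A2 or GFP A1 the number that rose was 1, without Double A1 or GFP B2 it was 2, and without Double B2 or GFP A2 it was 3. Anln, the anillin gene of the contractile ring, stood at 13.1, 8.51, 16.7 and 16.5 FPKM against 27.1, 26.7, 41.9 and 36.7 FPKM (-1.23 ± 0.13, adjusted p = 1.86e-05). Arpc1b, a subunit gene of the Arp2/3 complex, kept 13.1% of the control mean, at most 2.58 FPKM. The cofilin gene Cfl2 was higher in each double knockdown library, at 49.2 to 69.8 FPKM against 30.3 to 39.1 FPKM (0.73 ± 0.09).

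Calcium-binding annexins and S100 proteins showed 3 falls (23.1%) and 2 rises (15.4%) among 13, against 11.3% and 13.9% of all genes tested. The rises were 0 without Double A1, Double B2, GFP A2, GFP B1 or GFP B2 and 1 without Double A2 or GFP A1. S100a11 stood at 9.71, 5.85, 20.9 and 68.9 FPKM against 77.6, 55.4, 205 and 237 FPKM (-2.73 ± 0.39, adjusted p = 0.000163), and Anxa3 at 0.139, 0.727, 1.04 and 12.7 FPKM against 5.17, 5.07, 28.7 and 28.5 FPKM (-2.31 ± 0.47, adjusted p = 0.00219). In both genes the controls of cross B were several times those of cross A, and Double B2 lay above or between the cross A controls and below its own.

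Among cell contact genes, 4 of 12 tight junction genes fell (33.3%) and 2 rose (16.7%), against 11.3% and 13.9% of all genes tested. Marveld2, which encodes tricellulin, kept 40.4% of the control mean, with groups apart. Cldn5 rose from at most 0.273 FPKM to 4.18, 4.83, 1.96 and 0.664 FPKM (1.63 ± 0.33, adjusted p = 0.00207). The adherens junction gene Ctnna1 fell to 62.5% of the control mean (-0.65 ± 0.11, adjusted p = 0.000583). Ctnnb1, the beta-catenin gene, rose (0.45 ± 0.13, adjusted p = 0.0205), a call that ended without Double A1, Double A2, GFP A1 or GFP A2 (adjusted p from 0.0550 to 0.0738). Cdh1, the E-cadherin gene, did not pass (-0.40 ± 0.17, adjusted p = 0.0913), and neither did the keratin genes Krt18 (-0.90 ± 0.35, adjusted p = 0.0772) and Krt8 (0.01 ± 0.32, adjusted p = 0.982). Of 7 keratin and desmosome genes 1 fell and 1 rose, and 3 fell without Double A1, where Krt18 passed (adjusted p = 0.0295), and 2 without GFP A1. Perp, a desmosome gene that is also a p53 target, stood at 5.01, 7.17, 7.18 and 20.4 FPKM against 22.8, 28.1, 47.2 and 50.1 FPKM (-1.91 ± 0.25, adjusted p = 7.87e-05).

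For the fluid-filled cavity that forms later, 8 aquaporin and sodium pump genes were measured. Of these 2 fell (25%) and 2 rose (25%), against 11.3% and 13.9% of all genes tested. The number that rose was 1 without Double A1, Double B1, GFP A2 or GFP B2. Fxyd4, a pump regulator gene, fell with Aqp3 and kept 38.2% of the control mean (-0.85 ± 0.19). Aqp11, a channel gene of intracellular membranes, rose to 83.0, 98.3, 32.5 and 38.8 FPKM from 29, 37.9, 8.26 and 10.6 FPKM (1.62 ± 0.25, adjusted p = 0.000285). Cross A was the higher cross in both groups, and within each cross the groups were apart.

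**Figure D2:**
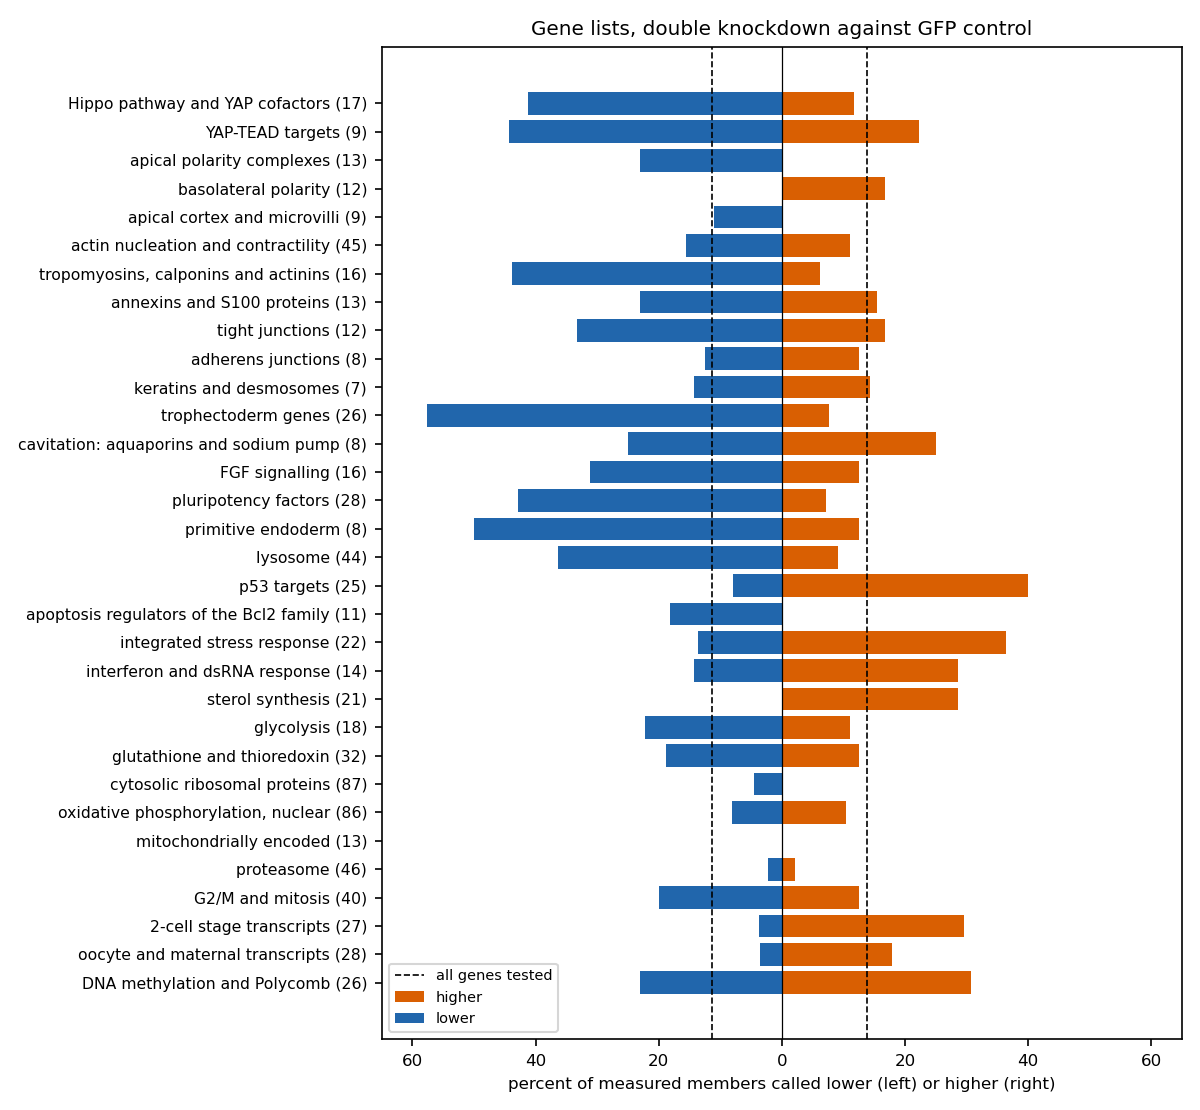
Bars give the percent of the measured members of each gene list (number in parentheses) called lower, to the left, or higher, to the right, in the double knockdown. Dashed lines mark the 11.3% lower and 13.9% higher of all genes tested. The longest bars to the left are the trophectoderm and primitive endoderm lists, which share Dab2 and Lrp2. The longest to the right is the p53 list.

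Lysosomal genes were lower as enzymes and cofactors and higher for a membrane protein. Among 44 measured genes 16 fell (36.4%) and 4 rose, with a median log2 change of -0.18. Grn, which encodes progranulin, stood at 45.1, 43.7, 41.9 and 36.3 FPKM against 146, 149, 101 and 116 FPKM (-1.58 ± 0.10, adjusted p = 4.55e-07). Psap, the prosaposin gene, kept 40.3% of the control mean, and Tfeb, the factor gene that drives lysosomal transcription, kept 12.7% with at most 1.85 FPKM. Lamp2, a gene of the lysosomal membrane, stood at 559, 509.8, 461 and 415 FPKM against 292, 259.7, 261 and 220.5 FPKM (0.91 ± 0.10, adjusted p = 1.65e-05). All 4 genes had groups apart, and Grn was here lowest in Double B2. Leaving out any 1 library left from 13 to 16 lysosomal genes lower.

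Several p53 targets were higher. Among 25 measured genes 10 rose (40%) and 2 fell (8%), against 13.9% and 11.3% of all genes tested. The median log2 change was 0.55, and from 8 to 12 were higher when 1 library was left out. Cdkn1a, the gene of the cell cycle inhibitor p21, stood at 236, 186, 518 and 529 FPKM against 56.2, 87.8, 197 and 147 FPKM (1.59 ± 0.14, adjusted p = 4.92e-06). Cross B was the higher cross in both groups, and within each cross the double knockdown was higher in both libraries. Sesn1, a sestrin gene, stood at 12 to 14.1 FPKM against 5.67 to 7.78 FPKM (0.98 ± 0.11, adjusted p = 1.75e-05), and Trp53inp1, a p53-induced nuclear protein gene, at 14.6 to 32.8 FPKM against 5.69 to 16.5 FPKM (1.17 ± 0.17). The 2 that fell were Perp and Sfn, an epithelial gene named here after its values were seen, which did not pass without Double A2 or GFP A1 (adjusted p = 0.0562 and 0.0563). In the Bcl2 family 2 of 11 fell (18.2%) and 0 rose, while 1 fell without GFP B2 and 1 rose without Double B2. Bad, a death-promoting member, kept 45.6% of the control mean (-1.11 ± 0.15, adjusted p = 8.76e-05).

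Of 22 genes of the integrated stress response 8 rose (36.4%) and 3 fell (13.6%), against 13.9% and 11.3% of all genes tested. The median log2 change was 0.01, and it was -0.03 after median-ratio rescaling. The genes named next are among those that rose. The number that rose was 5 without Double A2 or GFP A2. Ddit3, the CHOP gene, stood at 9.71, 8.47, 15 and 15 FPKM against 3.97, 3.45, 9.29 and 5.98 FPKM (1.01 ± 0.16, adjusted p = 0.000324). Eif2ak3, which encodes the kinase PERK, stood at 4.54 to 5.95 FPKM against 1.39 to 2.85 FPKM (0.94 ± 0.19, adjusted p = 0.00219).

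Of 14 genes of the interferon and dsRNA response 4 rose (28.6%) and 2 fell (14.3%), against 13.9% and 11.3% of all genes tested. With any 1 library left out 1 to 3 rose, 1 without Double B1 or GFP B2, and 1 fell without Double A1, Double A2 or GFP A1. Irf9, the DNA-binding subunit gene of the interferon-stimulated factor, stood at 0.970 to 2.78 FPKM against 5.89 to 9.14 FPKM (-1.53 ± 0.15, adjusted p = 9.41e-06). The dsRNA-processing gene Dicer1 rose to 174% of the control mean (0.66 ± 0.18, adjusted p = 0.015), which without GFP B2 did not pass (adjusted p = 0.0570). Control embryos carried dsRNA as well, so these values do not measure the response to dsRNA itself.

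Sterol synthesis had 6 of 21 genes higher (28.6%), and 0 lower, with a median log2 change of 0.27, and 2 were lower without GFP A1 and 1 without Double A1 or Double B2. Sqle, the squalene epoxidase gene, stood at 50.6, 47.8, 52.8 and 55.4 FPKM against 20.5, 18.3, 30.4 and 26.2 FPKM (1.11 ± 0.12, adjusted p = 1.41e-05). All double knockdown libraries lay above all controls. Fdps and Fdft1, which encode the enzymes on either side of farnesyl diphosphate, rose too (1.07 and 0.77), and 5 or 6 of the list were higher whichever library was left out.

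Sugar and redox genes went both ways, as did all genes tested, of which 11.3% were lower and 13.9% higher. Of 18 glycolysis genes 4 fell (22.2%) and 2 rose (11.1%), with a median log2 change of 0.04. The glucose transporter gene Slc2a3 stood at 2.83 to 3.28 FPKM against 6.67 to 7.49 FPKM (-0.95 ± 0.15). Pkm, the pyruvate kinase gene, reached 201% of the control mean and Eno1, the enolase gene, 194%. Of 32 glutathione and thioredoxin genes 6 fell (18.8%), Gsto1 first, and 4 rose (12.5%), with a median log2 change of 0.03. Txnip, the thioredoxin inhibitor gene, stood at 4.07, 4.39, 4.24 and 2.77 FPKM against 0.965, 0.376, 0.0685 and 0.386 FPKM (1.77 ± 0.18, adjusted p = 1.24e-05). Nqo1, a quinone reductase gene, stood at 5.23 to 5.96 FPKM against 0.818 to 1.82 FPKM (1.51 ± 0.15, adjusted p = 1.26e-05).

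Of 87 cytosolic ribosomal protein genes 4 fell and 0 rose, of 46 proteasome genes 1 fell and 1 rose, and of 13 mitochondrially encoded genes 0 passed in either direction. The ribosomal falls were small, with Rps29 the first by p (-0.37 ± 0.07, adjusted p = 0.00125), and 1 to 9 fell when 1 library was left out, 9 without GFP A2, 2 without Double B1 or GFP A1 and 1 without GFP B2. With 1 library left out 0 or 1 proteasome genes passed in each direction, and 1 mitochondrially encoded gene fell without Double B2 or GFP A2. Of 86 nuclear genes of oxidative phosphorylation 9 rose (10.5%) and 7 fell (8.14%), against 13.9% and 11.3% of all genes tested. The number that rose was 4 without Double A2 or GFP A2. The succinate dehydrogenase subunit genes Sdhc (0.81 ± 0.12) and Sdhd (0.93 ± 0.16) rose with groups apart.

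Of 40 genes of G2/M and mitosis 8 fell (20%) and 5 rose (12.5%), against 11.3% and 13.9% of all genes tested. The number that rose was 3 without Double A1, Double A2, GFP B1 or GFP B2. Fbxo5 encodes Emi1, an inhibitor of the anaphase-promoting complex. It stood at 26.1, 27.6, 33 and 40.7 FPKM against 54.6, 60.4, 73.1 and 79.4 FPKM (-1.05 ± 0.08, adjusted p = 1.85e-06). Cenpe, a kinetochore motor gene, also fell (-0.98, adjusted p = 1.63e-05). The mitotic kinase genes parted, with Aurkb higher (0.62 ± 0.11) and Aurka lower (-0.40 ± 0.08), each with groups apart. Of 26 genes of DNA methylation and Polycomb 8 rose (30.8%) and 6 fell (23.1%). The number that rose was 5 without Double A2, Double B1, GFP A1, GFP A2 or GFP B1. The methyltransferase gene Ezh2 stood at 26.4 to 31.6 FPKM against 48.7 to 57.4 FPKM (-0.90 ± 0.09, adjusted p = 7.8e-06), and its relative Ezh1 at 4.10 to 6.78 FPKM against 1.71 to 2.89 FPKM (0.93 ± 0.15). Tet2, a methylcytosine oxidase gene, kept 24.5% of the control mean.

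Among 27 measured transcripts typical of the 2-cell embryo 8 rose (29.6%), 1 fell and 18 missed the threshold, with a median log2 change of 0.82, and without Double B1 5 rose. Their summed level was 615, 602, 1590 and 909 FPKM in the double knockdown against 566, 517, 707 and 730 FPKM. Double B1 was the highest of the 8 libraries in 24 of the 27 genes. The sums of Double A1 and A2 lay above both controls of cross A and below both controls of cross B. Zscan4f, a gene of the brief 2-cell-like state named here after its values were seen, stood at 2.01, 0.309, 125 and 5.24 FPKM against 0.385, 1.72, 1.03 and 5.50 FPKM and was not called. Gm5662, also named after its values were seen, was high in both double knockdown libraries of cross B, at 4.11, 1.66, 124 and 74.8 FPKM against 1.71, 4.42, 12.5 and 13.3 FPKM.

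The Zscan4, Tdpoz and Usp17l families hold near-identical copies, so the value of any 1 member is uncertain. Zfp352, a retroposed zinc finger gene, passed with overlapping groups (1.31). Tmem92, a membrane protein gene, was higher in each double knockdown library, at 6.80, 9.00, 11.2 and 6.51 FPKM against 2.64, 2.91, 4.17 and 3.98 FPKM (1.07 ± 0.19, adjusted p = 0.000888). Eif1a, an initiation factor gene, fell in each, at 124, 102, 87.6 and 113 FPKM against 182, 195, 212 and 216 FPKM (-0.92 ± 0.10, adjusted p = 2.73e-05). In a pool of 10 embryos a few cells with much of a transcript and many cells with a little cannot be told apart, and for falls fewer cells of a type and less RNA per cell cannot be told apart.

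**Figure D3:**
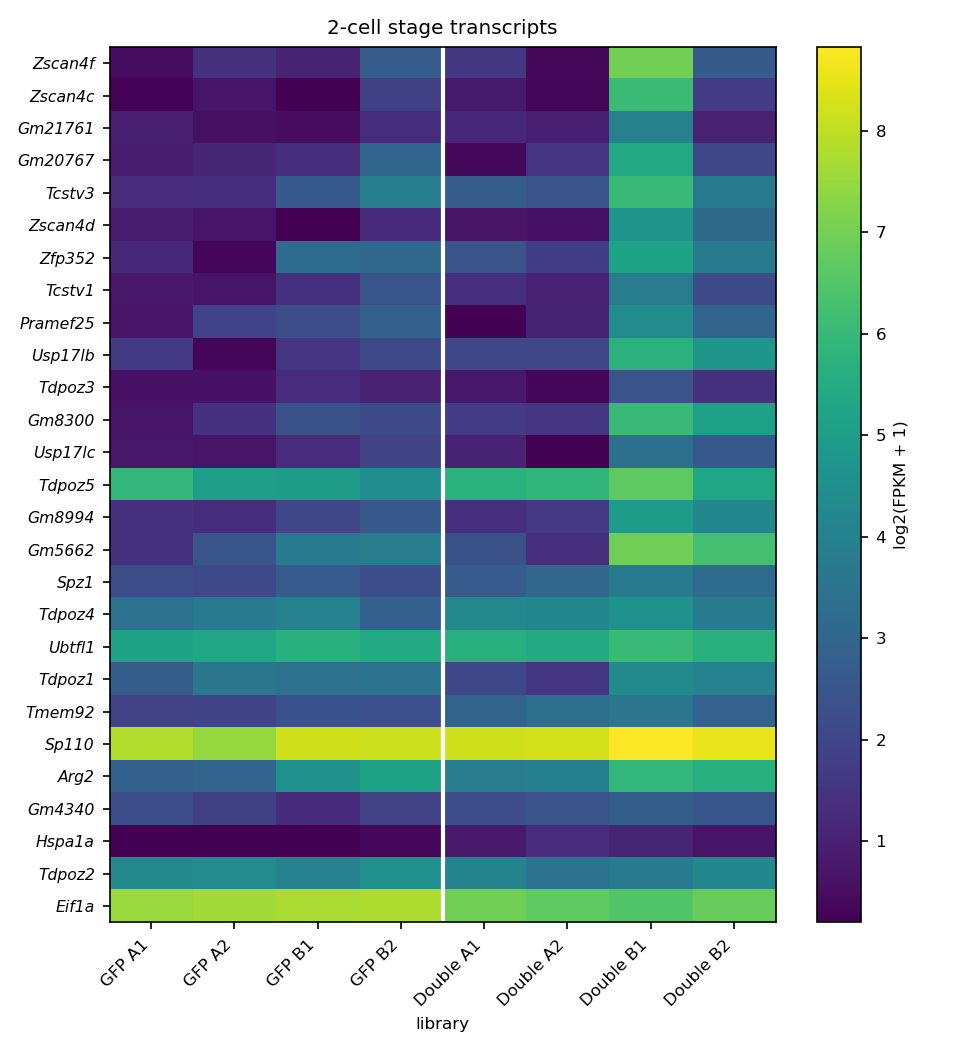
Rows are the 27 measured 2-cell stage transcripts, columns the 4 GFP control and 4 double knockdown libraries, and colour gives log2(FPKM + 1). Rows are ordered by how far Double B1 lies above the next library. Double B1 stands out in the upper rows, and Double B2 follows for Usp17lb and Gm5662.

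Of 28 oocyte and maternal transcripts 5 rose (17.9%) and 1 fell (3.57%), against 13.9% and 11.3% of all genes tested. Without GFP A2 the number that rose was 2, and without Double A2 or GFP B2 it was 3. Without Double A2 or Double B2 the number that fell was 2. The 1 that fell was Dppa3, which encodes the maternal factor Stella, at 5837, 6454, 6283 and 7028 FPKM against 7780, 8095, 8520 and 8679 FPKM (-0.37 ± 0.07, adjusted p = 0.00193). After quantile normalization its adjusted p was 0.118. Gpr3, the receptor gene that holds oocytes in arrest, rose with Uchl1 (0.92 ± 0.16, adjusted p = 0.000764).

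Summed markers of blood cells were 46.4 to 82.4 FPKM in the double knockdown against 13.6 to 33.3 FPKM (exact permutation p = 0.0286), most of it from the alpha-globin genes Hba-a1 (1.39 ± 0.26) and Hba-a2 (1.16 ± 0.23), which are near-identical copies and so uncertain one by one. The beta-globin genes Hbb-bs and Hbb-bt and the leukocyte gene Ptprc were listed at 0 in all 8 libraries, and 13 of the 16 blood markers never reached 1 FPKM in them. Their part in the other results was not tested.

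Crosses were compared because they differ in the mother's strain. No gene passed the test of the difference between the change in cross B and in cross A (0 of 11422, 0%), while 1284 had an unadjusted p under 0.05, and from 0 to 26 passed under the other settings tried with limma on all libraries. Within cross A, 1982 genes were called (17.4%), 1112 higher (9.74%) and 870 lower (7.62%). Within cross B 1982 were called (17.4%), 953 higher (8.34%) and 1029 lower (9.01%). Without Double B2, 52 genes passed the test of the difference, without Double A1 17 and without Double A2 1.

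The double knockdown was set against each single knockdown by the same model, with the control libraries shared by the changes given side by side. Against Tfap2c depletion alone 16 genes passed (0.14%), 4 higher (0.035%) and 12 lower (0.105%), and 1087 had an unadjusted p under 0.05. Against Tead4 depletion alone 2712 passed (23.7%), 1242 higher (10.9%) and 1470 lower (12.9%). Leaving out Double A2 or Tfap2c A2 gave 1 call against Tfap2c depletion, and leaving out any other library of these groups gave from 5 to 10 calls. Tead4 itself was 1 of the 12 that were lower (-1.52 ± 0.23, adjusted p = 0.0257).

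With Tfap2c dsRNA alone Amotl2 stood at 9.03, 11.5, 15.4 and 21.8 FPKM and with Tead4 dsRNA alone at 0.0351, 0.0994, 0.556 and 0.327 FPKM. The double knockdown lay between these and below the control, lower than Tfap2c depletion (-2.12 ± 0.15, adjusted p = 4e-06) and higher than Tead4 depletion (1.45 ± 0.15, adjusted p = 8.48e-06). Abcb1a, a drug efflux pump gene, lay at 19.1, 15.9, 9.81 and 14.3 FPKM in the double knockdown, below the 26.4 to 44.8 FPKM of Tfap2c depletion (-1.34 ± 0.18, adjusted p = 0.015) and above the 0.422 to 1.56 FPKM of Tead4 depletion (2.97 ± 0.18, adjusted p = 1.55e-07). Against the control its change did not pass (-0.37 ± 0.18, adjusted p = 0.153). Ier3, an immediate early gene, stood at 0.538 to 1.76 FPKM in the double knockdown and at 2.83 to 9.20 FPKM with Tfap2c dsRNA alone (-1.65 ± 0.26, adjusted p = 0.0257). Against the control Ier3 passed as higher in the double knockdown. That call was lost without Double A1, Double B1, GFP A1 or GFP A2 (limma adjusted p from 0.0570 to 0.0867) and without the filter (0.0712).

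The change in the double knockdown differed from the sum of both single changes in 86 genes (0.753%), 44 above the sum (0.385%) and 42 below it (0.368%). After median-ratio rescaling 52 were above and 23 below. In 32 of the 86 both single changes were below 0 and the double lay above their sum, and in 39 both were above 0 and the double lay below it, while log2(FPKM + 1) itself cannot fall below 0. S100a11 had log2 changes of -2.62 with Tfap2c dsRNA, -4.04 with Tead4 dsRNA and -2.73 with both (non-additive part 3.93 ± 0.55, adjusted p = 0.00851). Dab2 had changes of -0.69, -3.86 and -2.16 in the same order (2.40 ± 0.42, adjusted p = 0.0262), and Ezr had 1.23, 1.44 and 0.63 (-2.04 ± 0.37, adjusted p = 0.0279). Cdkn1a, taken up here after its values were seen, had 1.66, 1.23 and 1.59 (-1.29 ± 0.20, adjusted p = 0.0192). With single libraries left out the count was 12 to 55, lowest without GFP B2, except without Double A2 (113), Double B2 (71) or GFP B1 (71).

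**Figure D4:**
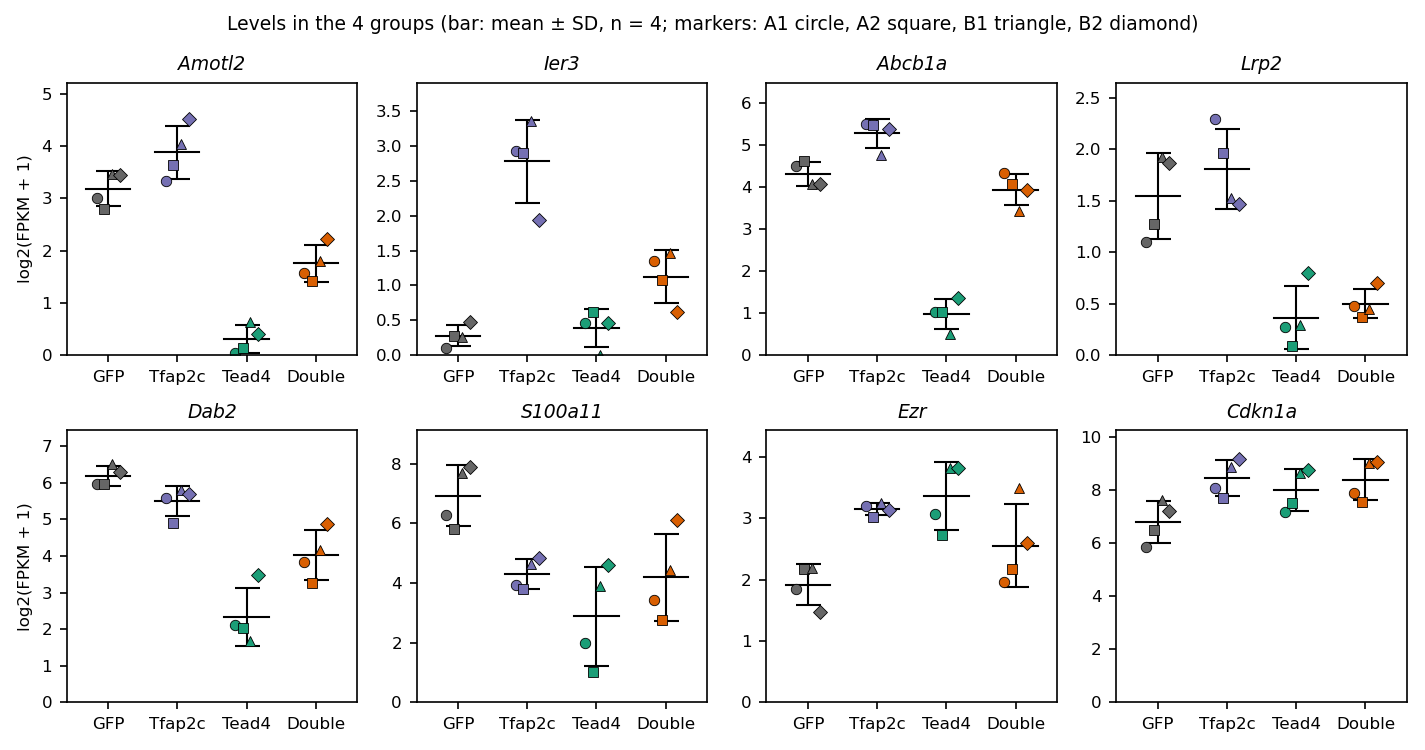
Levels of 8 genes as log2(FPKM + 1) on the y axis in the GFP control, Tfap2c knockdown, Tead4 knockdown and double knockdown on the x axis. Each marker is 1 library, the long bar the mean and the error bar the SD over 4 libraries. Amotl2 and Abcb1a lie between the single knockdowns when both genes are depleted, and Cdkn1a is about as high in the double knockdown as after Tfap2c dsRNA alone.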

How the data were processed

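Polyadenylated RNA of 8-cell mouse embryos was measured in 16 libraries by a Smart-seq2 procedure with TruePrep V2 libraries, per the labels' protocols. FPKM per gene, which the authors deposited, are fragments scaled to gene length and library size. CASAVA, Trim Galore, STAR, Cufflinks and mm10 are named in the submitters' processing notes, without versions or order, and the annotation used is likewise not given in the sources used here. Strand is not stated, so antisense and overlapping genes cannot be told apart. The table held 43496 lines, of which 59 repeated an identifier and were summed, and 27 names turned into dates were restored from identifiers. Locations and promoters are RefSeq's for GRCm38.p6, and 7536 of the genes tested matched a promoter. Read counts were not used here, so depth is unknown and the spread between libraries sets the precision.

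The log2(FPKM + 1) values were computed here from the deposited FPKM. For genes that reached 1 FPKM in 4 or more libraries, limma 3.58.1 under R 4.3.3 modelled group and cross over all 16 libraries (lmFit, then eBayes with trend). Tests were two-sided, and the threshold was 0.05 for p adjusted by Benjamini-Hochberg over all 11422 genes. An interaction of group with cross gave the test of the difference between crosses. The fit was tested on simulated data. Single values were compared by exact permutation.

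The members, the gene lists and the tests were chosen with earlier results of these data known. The rule for named genes took both targets, the 12 largest rises and falls that passed with a mean of at least 5 FPKM in 1 group, the same sign in both crosses and a symbol that was not a clone or provisional name (12 passed over among rises, 2 among falls), up to 4 members of each of 37 lists by lowest p, a set of looked-up genes, and 4 each way of the other contrasts. Alternatives were a pseudocount of 0.1, no filter or a mean of at least 5 FPKM, median-ratio rescaling, quantile normalization, no cross term, a replicate block, a robust eBayes, the 8 libraries alone and each library left out. List counts without single libraries were added after seeing the data. Some genes that the rule named are not reported here.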

Additional observations from a re-analysis of the deposited data

Results flagged for a closer look

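In 264 groups of 4 libraries, 1 for each named gene or library measure and group, 13 had 1 library whose gap to its nearest neighbour took a larger share of the range than Dixon's 95% critical value for 4 samples, and chance flags about 1 in 20 groups. In the double knockdown, Plp2 was high in B2 (8.01 FPKM), Pard6b was high in B2 (3.21 FPKM), Slc2a3 was low in B2 (2.83 FPKM), Eif2ak3 was high in A2 (5.95 FPKM) and Hba-a2 was high in A1 (27.1 FPKM). In the GFP control, Uchl1 was low in B2 (3.00 FPKM), Dicer1 was low in B2 (1.94 FPKM), Pou5f1 was low in A2 (30.02 FPKM) and Sesn1 was high in A2 (7.78 FPKM). GFP B1 stood apart by its number of genes at 1 FPKM or more (10504) and by its summed cumulus and granulosa markers (34.4 FPKM). GFP A2 stood apart by its mitochondrial share of FPKM (12.1%), and GFP B2 by its low sum of blood markers (13.6 FPKM).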

How the results depend on the processing

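Of the 122 genes named in the text and fitted against the GFP control 110 passed, of which 87 passed under each alternative that could fit them and 23 missed the threshold under at least 1. Of these losses 16 came in the fit without the cross term. No gene that passed changed direction. Krt8, which did not pass (0.01), was at -0.029 after median-ratio rescaling and -0.030 after quantile normalization, and lay from -0.16 to 0.32 with single libraries left out. Against the GFP control 1786 genes passed without the cross term, and leaving out single libraries gave 2268 to 2695. Against Tfap2c depletion 4 passed with a pseudocount of 0.1, 4 without the filter, 3 without the cross term and 8 with the replicate block, and 1 to 10 with single libraries left out. Against Tead4 depletion 1644 passed without the cross term, and 2105 to 2531 with single libraries left out. The non-additive part passed in 14 genes without the filter, 7 without the cross term and 36 with the replicate block, and in 12 to 113 with single libraries left out. The difference between crosses passed in 26 genes without the filter, 8 at a mean of at least 5 FPKM, 7 after median-ratio rescaling, 15 after quantile normalization and 10 with a robust eBayes, and in 0 to 52 with single libraries left out. The cause of these moves was not tested. With the replicate block in place of cross 2645 genes passed against the GFP control. Libraries of the 2 groups with the same label did not deviate together (residual correlations from -0.264 to -0.142), so the labels were not taken as a pairing. Depth is unknown, so no limit from counting can be given.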
